A study of Drepana arcuata with 6 samples.

Results

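The genes described here were already detected in early instars of the masked birch caterpillar, Drepana arcuata, and were far more abundant in late instars. They were chosen by a rule on the measured values. A gene needed at least 5 CPM in 1 or more early libraries, CPM being the reads of a gene scaled to the same library size, and its lowest late library had to reach at least 5 times its highest early library. The highest early value also had to exceed 1% of the lowest late value, and late replicate 2 had to lie between 10% and 10 times of each of the other late libraries. A pair of read clusters and the genes that the study lists by name were left out. The rule found 41 of the 116079 genes of the assembly. Of the 14262 genes with at least 5 CPM in an early library, 43 (0.302%) had all 3 late libraries at 5 or more times every early library. The rule itself fixed the direction and the least size of the difference between early and late instars, so those values are given as a description and nothing is read from them.

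Drepana arcuata is a moth whose larvae live in groups in their early instars and alone in their late instars. A caterpillar passes from one instar to the next by a molt, and between molts it feeds and grows. Much of its body is made up of the gut, the fat body that stores fuel and makes blood proteins, the silk glands and the epidermis that lays down the cuticle. Whole larvae hold all of these tissues, so a transcript can be more abundant in a library because more of its cells were present or because each cell held more of it. These cannot be told apart here.

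All larvae were offspring of 1 female and were reared on paper birch leaves under the same light cycle. The study compared early instars (I and II), with 20 larvae in each pool, and late instars (IV and V), with 5 larvae in each pool, using 3 pools of whole larvae per stage. The labels name no transgene and no treatment. Since the larvae are 1 family and each late pool holds few of them, the spread between libraries describes these pools and not the species. Age, instar mix and the number of larvae per pool change together between the stages and cannot be told apart.

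Expected counts summed to between 11177800 and 46307057 per library. The shallowest library was early replicate 2, where 1 CPM stands for 11.2 counts, and the deepest was early replicate 1, where it stands for 46.3 counts. Late replicate 2 stood apart from the other late libraries in many genes. Over the 14262 genes with at least 5 CPM in an early library, the median coefficient of variation of a pair of late libraries was 10.9% for replicates 1 and 3, 18.3% for replicates 1 and 2 and 13.9% for replicates 2 and 3. The number of genes that met the rule is therefore also given without late replicate 2 and without early replicate 2. Counts of calls are given as a range with 1 library left out.

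The files pair no transcript with a protein name. The assembler Trinity groups transcripts with common sequence into a gene, and calls each of them an isoform. TRINITY_ opens every identifier and is left off here. In an identifier, the part before _c is a read cluster, the part up to _g is a component of it, and the number after _g is the gene. None of the 41 genes is among those the study named or designed primers for. The annotation of the whole assembly was not used here, so no function is given to any of them. Of 27 genes that the study lists by name, only DN20910_c0_g1, named aminopeptidase N-like, met the limits on values, and it is not among the 41. Aminopeptidase N is a membrane enzyme of the larval midgut that trims peptides during digestion. DN20910_c0_g1 stood at 15.1, 17.2 and 15.9 CPM in early replicates 1, 2 and 3 and at 504, 113 and 387 CPM in the late ones. Late replicate 2 was the lowest of the late libraries for this gene, and it was still 6.59 times the highest early one.

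Together, the 41 genes held 713, 682 and 738 CPM in early replicates 1, 2 and 3. In late replicates 1, 2 and 3 they held 11073, 14758 and 12467 CPM. This is 0.0682% to 0.0738% of the counts of an early library and 1.11% to 1.48% of those of a late library. The median gene had a mean of 6.84 CPM in early instars and 187 CPM in the late ones, and the median ratio of the means was 18.0. Over all genes with at least 5 CPM in an early library the median means were 21.2 CPM in early instars and 21.8 CPM in the late ones. The rule used both levels, so they only describe the 41 genes. In late instars, 7 of them had a mean over 500 CPM, 23 a mean of 100 to 500 CPM, and 11 a mean under 100 CPM.

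**Figure D1:**
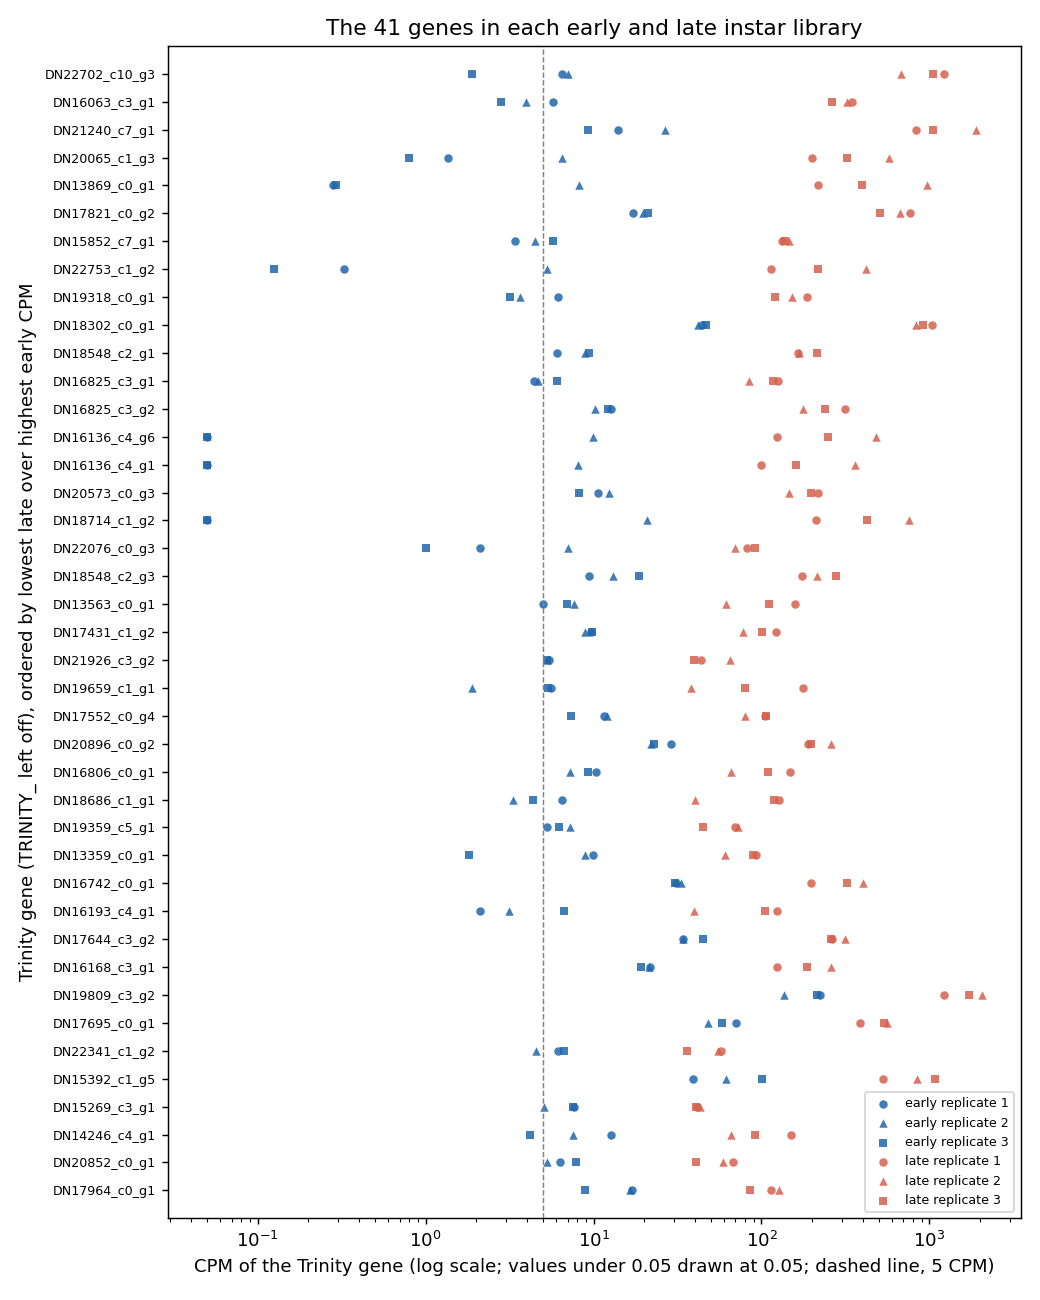
CPM of the 41 Trinity genes (rows, ordered by the lowest late over the highest early value) on a log axis, with 1 symbol per library, early in blue and late in red, and values under 0.05 CPM drawn at 0.05. All late values of a gene lie at least 5 times above its early ones, as the rule requires. Some genes have only 1 early value past the dashed line at 5 CPM, most often that of early replicate 2 (triangle).

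Detection in early instars was not the same for all 41 genes. In 22 of them (53.7%), each of the 3 early libraries reached 5 CPM, against 86.9% of all genes with at least 5 CPM in an early library. The number with at least 5 CPM was 30 in early replicate 1, 33 in early replicate 2 and 28 in early replicate 3. Under 1 CPM stood 5 genes in early replicate 1, 0 in early replicate 2 and 6 in early replicate 3. The early values spanned less than 2-fold in 26 genes and the late values in 25, and 21 genes had both. The median coefficient of variation over the early libraries was 25.1%, against 16.8% in all genes with at least 5 CPM in an early library. Over the late libraries it was 24.8%, against 17.0%. Low levels vary more by counting alone, and in early instars the median mean of the 41 genes was the lower one (6.84 against 21.2 CPM). In late instars it was the higher one (187 against 21.8 CPM). The 41 genes were not matched in level to the others, and what lies behind their spread was not tested.

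The widest separation of the stages was that of DN22702_c10_g3, whose longest isoform has 1030 bp. Its values were 6.5, 7.07 and 1.89 CPM in early replicates 1, 2 and 3 and 1221, 678 and 1048 CPM in the late ones. The lowest late library was 95.9 times the highest early library. The 1% limit of the rule bounds this ratio from above, and without that limit 42 genes met the rule. The fitted log2 difference, late minus early, was 7.56 (SE 0.57). Both other genes of its component had the same profile without meeting the rule. DN22702_c10_g1 stood at 1.70 to 4.47 CPM in early instars and 473 to 773 CPM in the late ones, and DN22702_c10_g2 at 0.220 to 0.537 and 34.4 to 47.1 CPM. The files hold no sequence, and whether the 3 are pieces of 1 transcript was not tested.

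DN16063_c3_g1 has 30 isoforms, the most of the 41 genes, and a longest isoform of 5717 bp. It had 5.70, 3.94 and 2.81 CPM in early instars and 344, 323 and 265 CPM in late replicates 1, 2 and 3. The late libraries differed little from one another, and the log2 difference was 6.20 (SE 0.30). DN15852_c7_g1 was even steadier in late instars, at 133, 146 and 137 CPM, after 3.41, 4.47 and 5.71 CPM in early instars. Its log2 difference was 4.90 (SE 0.28). DN17821_c0_g2 was 17.3, 19.8 and 21.0 CPM in early instars and 770, 668 and 508 CPM in the late ones, a log2 difference of 5.02 (SE 0.25). In each of these 3 genes the late values lay within 2-fold of each other. DN16063_c3_g1 reached 5 CPM only in early replicate 1 and DN15852_c7_g1 only in early replicate 3, and each dropped out of the rule without that library. DN17821_c0_g2 met the rule without any 1 early library, and so did DN18302_c0_g1, with 44.2, 41.7 and 47.0 CPM in early instars and 1034, 828 and 911 CPM in the late ones.

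Levels can be compared between genes only per length, which the deposited TPM (transcript abundance per length, scaled to the same sum in each library) gives. By mean TPM, DN19809_c3_g2 was first in both stages, with 471 ± 114 TPM in early and 4652 ± 1183 TPM in late instars (SD, n = 3). In CPM it stood at 222, 136 and 215 in early and 1223, 2050 and 1731 in late replicates 1, 2 and 3. Its longest isoform has only 277 bp. For so short a contig, TPM depends strongly on the effective length that RSEM assigns. DN19809_c3_g1, its component neighbour of 1928 bp, had the same profile at 58.7 to 112 CPM in early instars and 443 to 870 CPM in the late ones, and missed the limit of 5 times.

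Next in late instars came DN21240_c7_g1 (3101 ± 1712 TPM), DN15392_c1_g5 (2222 ± 675 TPM), DN13869_c0_g1 (1822 ± 1470 TPM) and DN17695_c0_g1 (1235 ± 213 TPM). The late values of neighbours in this order overlapped. DN16825_c3_g2 had 733 ± 217 TPM, DN18302_c0_g1 681 ± 93.4 TPM and DN22702_c10_g3 655 ± 227 TPM, and their ranges overlap, but all lay below the lowest value of DN17695_c0_g1, 995 TPM. In early instars, DN17695_c0_g1 (134 ± 21.0 TPM) and DN15392_c1_g5 (132 ± 55.3 TPM) followed DN19809_c3_g2. DN21240_c7_g1 (35.8 ± 22.2 TPM), DN16825_c3_g2 (31.4 ± 3.78 TPM), DN18302_c0_g1 (28.6 ± 0.73 TPM), DN16825_c3_g1 (23.2 ± 2.12 TPM) and DN18548_c2_g1 (15.4 ± 3.23 TPM) came after them. Neighbours in this early order overlapped from DN17695_c0_g1 to DN15392_c1_g5 and from DN21240_c7_g1 to DN18302_c0_g1, and not elsewhere. The 8 highest genes in late TPM had longest isoforms of 266 to 1030 bp. Of the 41 genes, 7 have a longest isoform under 500 bp (17.1%), against 8.72% of all genes with at least 5 CPM in an early library.

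The median longest isoform of the 41 genes was 1612 bp, against 1963 bp in all genes with at least 5 CPM in an early library. The median number of isoforms was 7, against 5. A single isoform was found in 3 of the 41 genes (7.32%), against 13.9% of the same comparison genes. The 41 genes fell into 38 read clusters. In 3 clusters, 2 genes met the rule: DN16136_c4_g1 with DN16136_c4_g6, DN16825_c3_g1 with DN16825_c3_g2, and DN18548_c2_g1 with DN18548_c2_g3. Such pairs are not independent observations, because RSEM divides reads that fit both genes between them. DN16825_c3_g1 was 4.45, 4.65 and 6.04 CPM in early instars and 125, 83.9 and 117 CPM in the late ones. DN16825_c3_g2 was 12.7, 10.2 and 12.2 CPM in early instars and 314, 176 and 238 CPM in the late ones. In both, late replicate 2 was the lowest late library.

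Sharing a component did not always mean sharing the profile. DN17821_c0_g3 stood at 140 to 148 CPM in early instars and 146 to 177 CPM in the late ones, while DN17821_c0_g2 differed as given above. DN18302_c0_g3 stood at 139 to 181 CPM in early instars and 175 to 222 CPM in the late ones. For DN18714_c1_g2, the neighbour DN18714_c1_g3 was lower in late instars, at 0.463 to 0.849 CPM after 7.85 to 11.2 CPM.

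In a set of genes, early expression came almost wholly from 1 library. DN13869_c0_g1 stood at 0.281, 8.23 and 0.294 CPM in early replicates 1, 2 and 3, and at 216, 967 and 397 CPM in the late ones. DN18714_c1_g2 had 0 counts in early replicates 1 and 3, which allows up to 0.0648 and 0.126 CPM (3 counts), and 20.9 CPM in early replicate 2, and then 212, 754 and 424 CPM in late replicates 1, 2 and 3. DN16136_c4_g6 had 0.0216, 9.92 and 0 CPM in early instars and 124, 484 and 249 CPM in the late ones. In each of them early replicate 2 was far above both other early libraries, and late replicate 2 was the highest late library.

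DN16136_c4_g1 followed at 0, 8.08 and 0.0420 CPM in early instars and 98.8, 363 and 161 CPM in the late ones. DN22753_c1_g2 had 0.325, 5.29 and 0.126 CPM in early instars and 113, 419 and 217 CPM in the late ones. In the whole table, only 5 genes had at least 5 CPM in early replicate 2 and under 10% of that in each other early library, and all 5 are among the 41. The same count was 0 for early replicate 1, and 1 gene, not among the 41, for early replicate 3. DN20065_c1_g3 was a weaker case, with 1.36, 6.53 and 0.797 CPM in early instars and 200, 571 and 324 CPM in the late ones. For these 6 genes the label of early expression rests on 1 library of 11177800 counts, which is 1 pool.

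**Figure D2:**
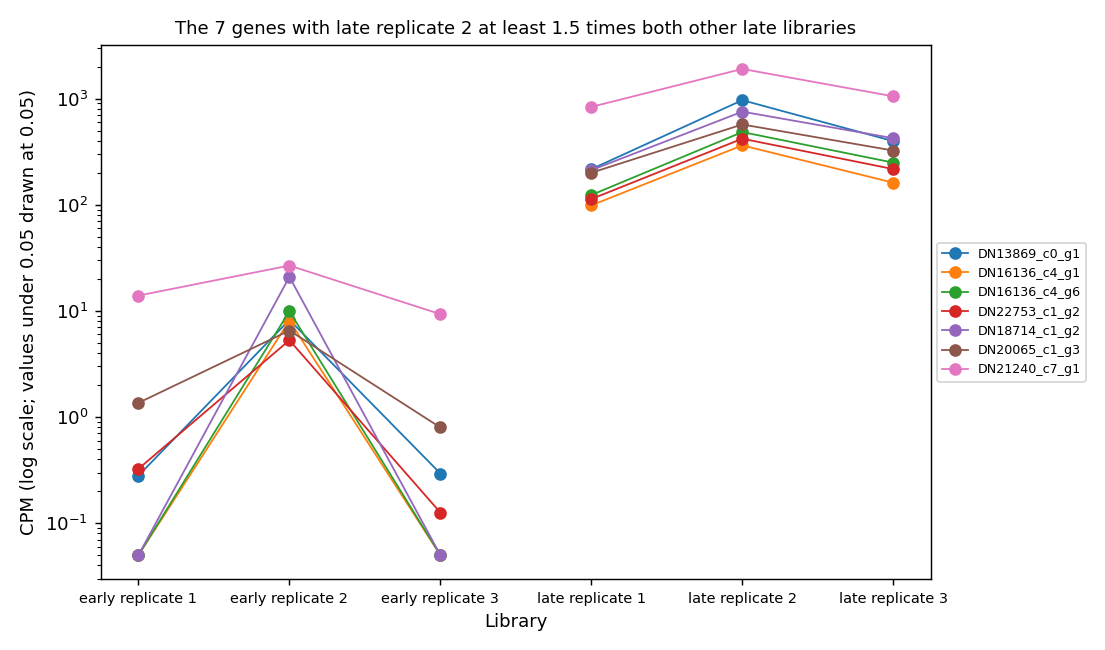
CPM of the 7 genes whose late replicate 2 was at least 1.5 times both other late libraries, in the 6 libraries on a log axis (values under 0.05 CPM drawn at 0.05), with points of a stage joined to follow a gene. All 7 peak in early replicate 2 and in late replicate 2, and DN21240_c7_g1 is the only one over 5 CPM in every early library.

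The 6 genes share their late profile with DN21240_c7_g1, which stood at 13.9, 26.7 and 9.32 CPM in early instars and 835, 1903 and 1051 CPM in the late ones. These 7 are all of the 41 genes in which late replicate 2 was at least 1.5 times both other late libraries, and early replicate 2 was the highest early library in each of the 7. Among the 1175 genes with such a late replicate 2 and at least 5 CPM in an early library, early replicate 2 was highest in 26.9%. Among the 28 of the 41 genes in which late replicate 2 was neither that high nor that low, early replicate 2 was highest in 5. The 7 genes were singled out after their values were seen, and the rule kept a gene nearly confined to late instars only where an early library reached 5 CPM, so these are descriptions.

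In the 6 genes, early replicate 2 held 1.56% to 4.52% of the mean late CPM, and early replicates 1 and 3 each held under 0.5%. Among other genes with so little in early replicates 1 and 3 and at least 20 CPM in every late library, 3 had the same late profile, at 1.45% to 4.62%, and 2 of them, DN20065_c1_g1 and DN13869_c0_g2, share a component with one of the 6. In the 110 such genes with another late profile, early replicate 2 held a median of 0.289% (0% to 1.40%). The rule kept the 6 genes through their early replicate 2 value, so nothing is read from this difference. Early replicate 2 also held more than the other early libraries in genes the rule did not keep. In genes with at least 100 CPM in every late library and under 0.5% of the late mean in both other early libraries, the median share of the late mean was 0.235% in early replicate 2 (29 genes), 0.0201% in early replicate 1 (25 genes) and 0.008% in early replicate 3 (25 genes). Whether RNA or reads of late instars had entered that library was not tested.

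Without early replicate 2 these 6 genes no longer met the rule, nor did DN22076_c0_g3 and DN22702_c10_g3, and 2 further genes met it. DN22076_c0_g3 stood at 2.09, 7.07 and 1.01 CPM in early instars and 81.7, 70.0 and 91.2 CPM in the late ones. DN22702_c10_g3 dropped out because its highest remaining early value, 6.5 CPM, was under 1% of its lowest late value. With at least 5 CPM required in every early library, a limit added after the data were seen, 22 genes remained of the 41.

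Late replicate 2 was lowest, at most 1/1.5 of both others, in 6 genes (14.6%), against 7.95% of all genes with at least 5 CPM in an early library. DN19659_c1_g1 stood at 176, 38.2 and 80.1 CPM in late replicates 1, 2 and 3, after 5.61, 1.88 and 5.37 CPM in early instars. DN18686_c1_g1 stood at 128, 40.2 and 119 CPM after 6.48, 3.31 and 4.36 CPM, and DN16193_c4_g1 at 124, 39.9 and 105 CPM after 2.09, 3.13 and 6.71 CPM. DN13563_c0_g1 had 157, 61.3 and 111 CPM after 4.99, 7.60 and 6.96 CPM. The other 2 were DN16806_c0_g1 and DN22702_c10_g3. The named aminopeptidase N-like gene had a late replicate 2 that was low in the same way, at 113 CPM against 387 and 504 CPM. Of the 27 genes that the study lists by name, 5 were low in late replicate 2 by the same limit, and they were of several kinds: aminopeptidase N-like, serine protease H51, mucin-5AC-like, glucose dehydrogenase-like and urbain precursor.

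Of the 6 libraries, late replicate 2 moved the number of genes that met the rule most when left out. Without it 117 genes met the rule, 40 of the 41 and 77 further ones. Leaving out late replicate 1 gave 53 genes and leaving out late replicate 3 gave 54, and all 41 were among them in both. Leaving out a late library cannot make the lowest late value smaller, so a gene of the 41 could drop out only through the 1% limit. That the 41 genes stayed is therefore not read as a result. Without late replicate 2, the limits on that library do not apply either. Leaving out early replicates 1, 2 and 3 gave 44, 35 and 53 genes, and 3, 8 and 3 of the 41 dropped out.

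**Figure D3:**
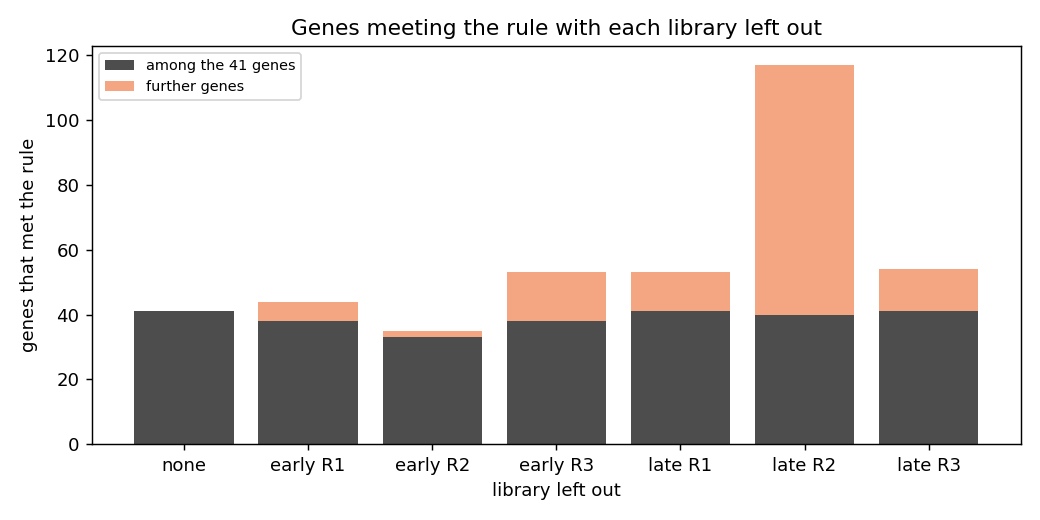
Number of genes that met the rule with none or 1 of the 6 libraries left out (bars from 0), split into those among the 41 (grey) and further genes (orange). The bar without late replicate 2 reaches 117 genes, and the others lie between 35 and 54.

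Across all 22132 genes with more than 1 CPM in at least 2 libraries, the quasi-likelihood test of edgeR placed 33 of the 41 genes among its calls for a higher level in late instars. A call needed an adjusted p no larger than 0.001 and a log2 difference of 2 or more. Of all genes tested, 4.87% were called in that direction. Since the rule used this contrast, the count only describes which of the 41 genes had a log2 difference large enough for its spread. The 8 others include the 5 genes whose other early libraries each stood under 10% of early replicate 2, with standard errors of 1.35 to 2.05 on the log2 scale. They also include DN13359_c0_g1, DN19659_c1_g1 and DN22076_c0_g3. DN13359_c0_g1 had 1.80 CPM in early replicate 3 against 9.87 and 8.86 CPM in the other early libraries. The median log2 difference, late minus early, was 4.13 for the 41 genes and -0.0028 for all genes tested. The smallest was that of DN15269_c3_g1, at 2.58 (SE 0.20).

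The 4 genes nearest to the limit from inside had a lowest late value of 5.01 (DN17964_c0_g1), 5.15 (DN20852_c0_g1), 5.21 (DN14246_c4_g1) and 5.30 (DN15269_c3_g1) times the highest early value. The 4 nearest from outside had 4.99 (DN15348_c2_g1), 4.96 (DN22723_c1_g2), 4.92 (DN20950_c1_g1) and 4.84 (DN13724_c0_g1). No gap separates them. DN22723_c1_g2, for example, stood at 20.6, 20.7 and 21.4 CPM in early instars and 106, 125 and 118 CPM in the late ones, and its libraries were steadier than those of DN14246_c4_g1, with 12.6, 7.51 and 4.2 CPM and then 149, 65.8 and 91.2 CPM. At the early minimum, the closest genes inside had a highest early value of 5.29 (DN22753_c1_g2), 5.44 (DN21926_c3_g2) and 5.61 CPM (DN19659_c1_g1). The closest outside had 4.04 (DN19353_c1_g1), 4.03 (DN19900_c0_g1) and 4.0 CPM (DN20065_c1_g1).

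The rule used the sum over the isoforms of a gene, and not how the sum was divided. Of the 38 genes with 2 or more isoforms, 31 had the same leading isoform in both stages and 7 had another one in late than in early instars. In all such genes with at least 5 CPM in an early library, 17.3% had another leading isoform, so 7 of 38 is near this background. In 31 of the 41 genes, the isoform that led in early instars met the limit of 5 times on its own. The 3 genes with a single isoform do so by the rule, and a gene made up mostly of 1 isoform nearly so. That count is therefore only a description. In 2 of the 10 other genes, the isoform that led in early instars was on average lower in late than in early instars although the gene was higher.

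DN17964_c0_g1 was one of them. Its isoform i9, of 3264 bp, took 62.5%, 51.4% and 63.5% of the gene in early replicates 1, 2 and 3 and 0.0495%, 0.0557% and 0% in the late ones. Isoform i8, of 909 bp, had 0 counts in every early library, which allows up to 0.0369 CPM (3 counts over the 3 early libraries, counting error only), and took 36.5%, 39.3% and 44.6% of the gene in late instars. In CPM, i9 was 8.20 ± 2.50 in early and 0.0443 ± 0.0389 in late instars, and i8 was 43.1 ± 6.16 in late instars (SD, n = 3). The isoform that led in early instars was thus nearly absent from late ones, and others carried the higher sum.

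DN19359_c5_g1 was the other. Isoform i4, of 1887 bp, took 85.7%, 96.3% and 85.9% of the gene in early and 5.19%, 5.72% and 12.7% in late instars. It had 5.61 ± 1.23 CPM in early instars and 4.48 ± 1.08 CPM in the late ones (SD, n = 3), and the ranges overlap. Isoform i1, of 1931 bp, had 0 counts in early instars, under the same limit, and 44.8 ± 11.7 CPM in the late ones, or 69.7% to 72.9% of the gene. Here most of the late sum came from an isoform not detected in early instars.

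In DN17821_c0_g2 the leading isoform was the same, and it took over the gene. Isoform i7, of 3513 bp, took 34.1%, 69.2% and 40.3% in early replicates 1, 2 and 3, and 99.6%, 99.5% and 99.3% in the late ones. Isoform i1, of 3113 bp, was at 33.0%, 19.0% and 30.7% in early and 0.153%, 0.053% and 0.117% in late instars. In CPM, i1 was 5.70, 3.76 and 6.46 in early and 1.18, 0.354 and 0.596 in late instars, so all 3 late libraries lay below the early ones while the gene as a whole was higher. In early replicate 2 the share of i7 was the highest of the early libraries.

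In DN20896_c0_g2 several isoforms were higher in late instars, but not by the same amount, and a minor isoform was lower. Isoform i8, of 876 bp, took 35.4%, 40.4% and 39.9% of the gene in early and 9.87%, 10.4% and 10.5% in late instars. Isoform i12, of 760 bp, took 15.9%, 15.1% and 12.1% in early and 46.7%, 52.7% and 49.5% in late instars. Isoform i10, of 1727 bp, stayed at 33.5% to 36.9% and then 34.2% to 40.4%. The minor isoform i5, of 1280 bp, had 1.38, 1.43 and 1.05 CPM in early and 0.197, 0.92 and 0.397 CPM in late instars. The gene stood at 28.9, 21.9 and 22.8 CPM in early instars and 189, 258 and 198 CPM in the late ones.

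**Figure D4:**
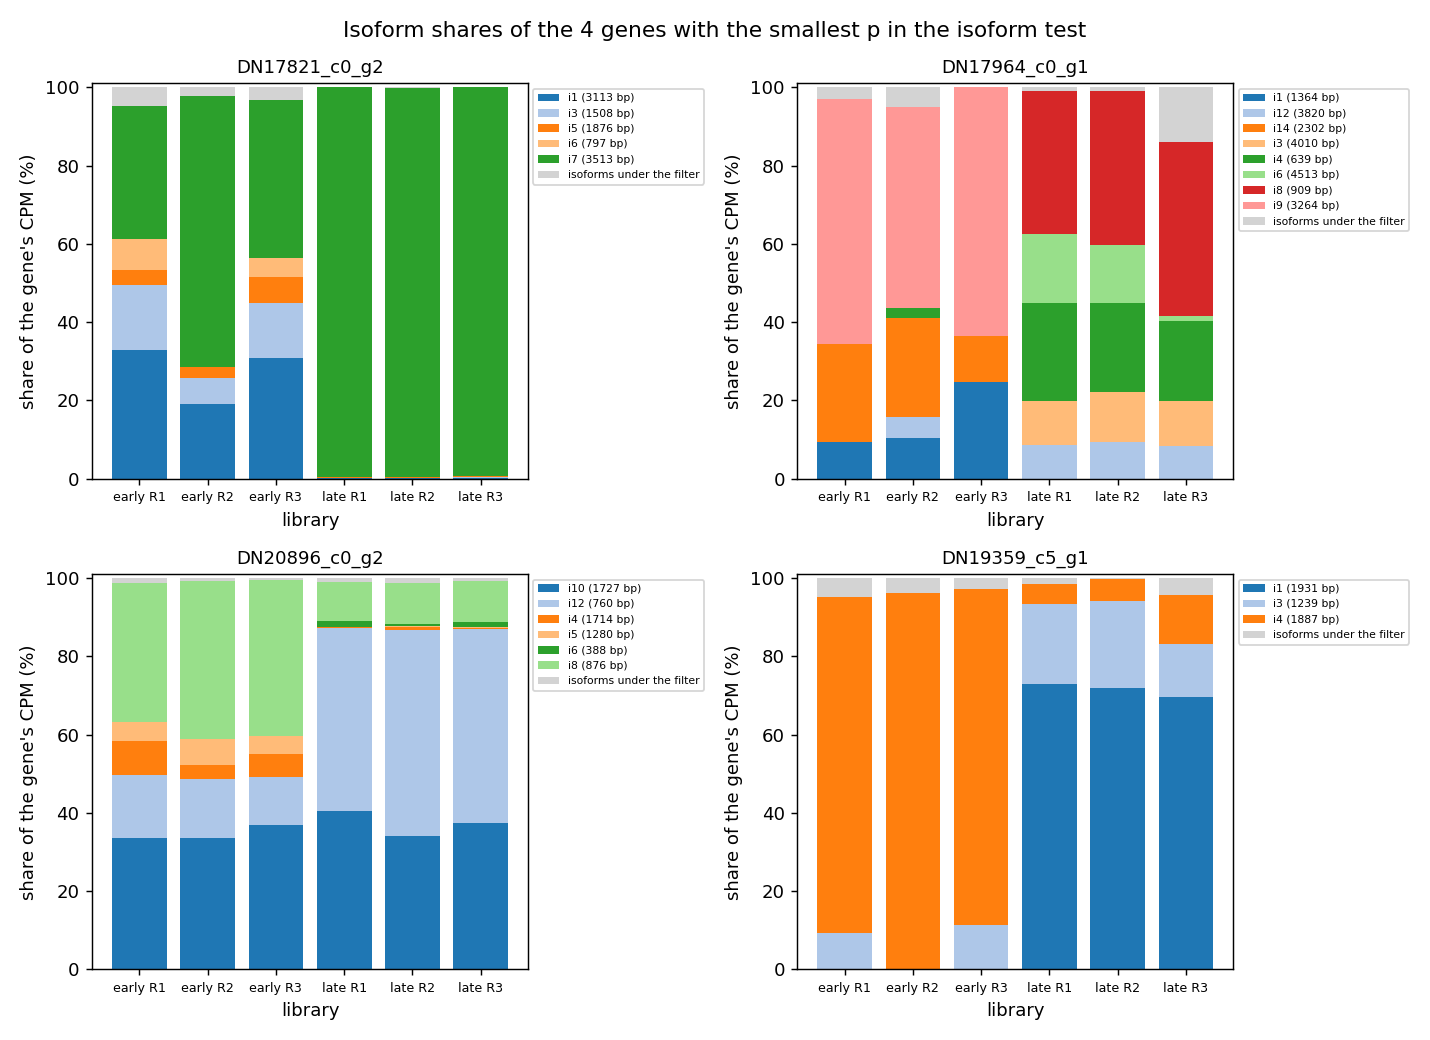
Share of each isoform in the CPM of its gene (stacked bars, percent) in the 6 libraries, for DN17821_c0_g2, DN17964_c0_g1, DN20896_c0_g2 and DN19359_c5_g1, with isoforms that did not pass the filter on low values in grey. The 3 libraries of a stage mostly resemble each other in all 4 genes. Among the exceptions is the larger i7 share of DN17821_c0_g2 in early replicate 2. In DN17964_c0_g1, early replicate 3 has a larger i1 and a smaller i14 share, and late replicate 3 has a small i6 share.

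Whether the isoforms of a gene differed between the stages by unequal amounts was tested with edgeR's diffSpliceDGE over 11676 genes, 5.76% of which had an adjusted p of at most 0.05. Of the 41 genes, 36 had 2 or more isoforms past the filter on low values, and 10 of them were called. The change of the sum cancels in this test, but it compares the stages that the rule used, and the test has more counts to work on where late values are high. The count is therefore given beside the background and nothing is read from it. On simulated data this test called more unchanged genes than its adjusted p allows, so the adjusted p given here are not exact error rates. By the Benjamini-Hochberg adjusted p of diffSpliceDGE, the 4 genes above came first, with 4.55e-08 for DN17821_c0_g2, 6.11e-08 for DN17964_c0_g1, 2.43e-07 for DN20896_c0_g2 and 2.34e-05 for DN19359_c5_g1. These 4 were called under all 11 alternatives, with adjusted p of 1.56e-08 to 0.000474, 3.32e-08 to 0.000377, 1.18e-07 to 0.0411 and 1.76e-05 to 0.00927 in the same order.

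The other 6 called genes were DN19318_c0_g1, DN17431_c1_g2, DN18548_c2_g3, DN22341_c1_g2, DN21926_c3_g2 and DN17552_c0_g4, with adjusted p of 0.000444 to 0.0439 by the same test, and each lost its call under 2 or more alternatives. In DN19318_c0_g1, isoform i1 took 96.5%, 26.8% and 100% of the gene in early and 2.04%, 2.38% and 2.31% in late instars. Its level was 3.38 ± 2.47 CPM in early instars and 3.40 ± 0.554 CPM in the late ones (SD, n = 3), while the gene went from 3.19 to 6.15 CPM in early to 120 to 188 CPM in the late ones. In late replicate 2, isoform i4 led with 54.1%, and in late replicates 1 and 3 isoform i3 led with 45.2% and 34.3%. RSEM estimates how reads that fit several isoforms are divided, so the share of 1 isoform is less certain than the sum of the gene.

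**Figure D5:**
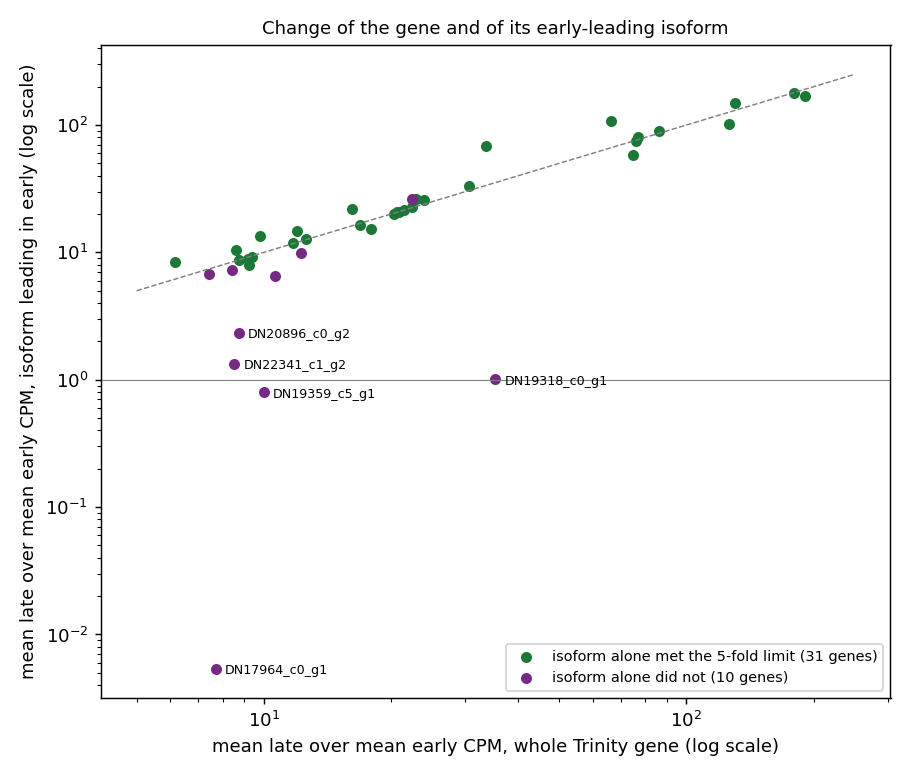
Ratio of the mean late to the mean early CPM of the whole gene (horizontal) and of the isoform that led in early instars (vertical), both on log axes, for the 41 genes, with equal ratios on the dashed line. Most genes lie along that line, and DN17964_c0_g1, DN19359_c5_g1, DN19318_c0_g1, DN22341_c1_g2 and DN20896_c0_g2 lie well below it. Genes with a single isoform lie on the line by definition.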

How the data were processed

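Whole-larva RNA of 3 early and 3 late instar pools was sequenced as paired-end reads. The authors trimmed reads with Trimmomatic 0.36 after a check with FastQC 0.11.7, assembled all libraries together with Trinity and estimated abundance with RSEM, whose version is not given in the sources used here (nor is its aligner). They deposited expected counts per transcript, without normalization. The authors also deposited TPM and FPKM and the percent of each isoform in its gene. FPKM and that percent were not used.

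Expected counts were summed per Trinity gene and scaled by the library total (CPM). For tests, counts were rounded, scaled by TMM and fitted on the whole table with edgeR 4.0.16 in R 4.3.3 (features over 1 CPM in at least 2 of 6 libraries, stage as the only term, Benjamini-Hochberg adjustment). Isoforms were tested with diffSpliceDGE. DESeq2 1.42.0, the exact test, other filters and scalings and each library left out were the alternatives. Log2 differences are late minus early, and standard errors follow from the F statistic. On simulated data the gene test recovered the changed genes, and the isoform test called more unchanged genes than its adjusted p allows.

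The genes, lists and limits were chosen with earlier results of these data known. The text names the 8 genes with the widest separation, the 8 highest by late and by early mean TPM, the 4 on each side of the limit, the 4 with the smallest p of the isoform test and the 4 with the lowest and highest late replicate 2. Others were named after their values were seen. The p-values measure the spread between pools of 1 family.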

Additional observations from a re-analysis of the deposited data

How the results depend on the processing

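The number of genes that met the rule, 41, was 20 with TPM in place of CPM (16 shared), 117 with a limit of 3 times, 17 with a limit of 10 times, 145 with an early minimum of 1 CPM, 18 with one of 10 CPM and 22 with at least 5 CPM in every early library, which was added after the data were seen. It ranged from 35 to 117 with 1 library left out, the highest without late replicate 2. With TMM it was 39, with RLE 43, and over single isoforms 43. The loss with TPM follows from the minimum, since 25 of the 41 genes stayed under 5 TPM in every early library, and 39 kept a ratio of 5 in TPM.

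The 33 genes called by edgeR's quasi-likelihood test became 38 with the exact test and 38 with DESeq2. Over all 22132 genes tested, the calls in that direction were 1077, 1608 and 1621 in the same order. Without a filter on low values all 41 were called, among 2244 of 114457 genes. With 1 library left out the 33 became 22 to 36, of which 22 to 33 were shared. The calls over all genes were then 581 to 1486, so the counts of the 41 move with the whole table. The median log2 difference of 4.13 ranged from 4.05 to 4.32 with 1 library left out. For DN16136_c4_g1, DN16136_c4_g6 and DN18714_c1_g2, fitted log2 differences without early replicate 2 rest on 0 or 1 early counts and are no estimate.

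The 10 isoform calls became 6 with Simes p, 5 with isoforms over 5 CPM and 5 at an adjusted p of 0.001. With 1 library left out they became 7 to 10, of which 7 or 8 were shared. The share of all tested genes that the isoform test called is given only for its main setting. Whether the isoform calls under the other settings move with the whole table was therefore not tested. The 7 changes of leading isoform ranged from 6 to 9 with 1 library left out (5 to 7 shared), and were 9 by TPM (6 shared).

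The main fits did not pair the stages by the numbers of the replicates. Correlations of deviations were 0.15, 0.0359 and 0.218 for numbers 1, 2 and 3, and each library correlated best with its own number. With the replicate block, 36 of the 41 genes were called, among 992 calls over all 22132 genes. The median log2 difference was then 4.14. With the block, 8 isoform calls were made, 7 of them shared, and no count of isoform calls over all genes stands beside them. Depth limits early replicate 2 most, where 1 CPM is 11.2 counts.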
